A study of Mus musculus with 4 samples.

Results

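Malat1, Neat1, Pvt1, Mir17hg and Dleu2 are 5 long noncoding RNA genes that T cells transcribe, and their levels were followed in CD4+ T cells activated with or without dopamine. They were found by matching Ensembl gene IDs to GENCODE names, and all 5 had a row among the 38282 gene IDs measured and passed the filter on low values. The groups were Th0+Dopa, naive CD4+ T cells from the spleen of C57BL/6 mice that received dopamine in a Th0 culture, and Th0, the same culture with no dopamine. Both were harvested on day 4, and each group had 2 libraries, numbered 2 and 3. In a Th0 culture T cells are activated and given none of the cytokines that would direct them to a helper lineage. The series' title places it in work on dopaminergic innervation and Th2 inflammation in the postnatal lung, and the comparison asks how dopamine bears on the RNA of activated T cells. The sources used here give no dose or timing of dopamine and no age or number of mice.

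Malat1 and Neat1 are nuclear RNAs transcribed next to each other. Malat1 collects in nuclear speckles, which store splicing factors, and is not needed for their assembly, while Neat1 is the scaffold on which paraspeckles are built. Pvt1 lies beside the Myc proto-oncogene in the same orientation. Mir17hg is the primary transcript of the miR-17-92 cluster, which promotes T cell proliferation and survival after activation, and Dleu2 carries miR-15a and miR-16-1, which restrain the cell cycle and survival genes. A microRNA pairs through its seed with sites in the 3′ untranslated regions (UTRs) of mRNAs and lowers their stability or translation.

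The microRNAs made from Mir17hg and Dleu2 set what these transcripts can act on, so the usual functional arm of each is shown, with the seed (bases 2 to 8) in capitals. All are from RefSeq on GRCm38.p6, written 5′ to 3′.
mmu-miR-17-5p: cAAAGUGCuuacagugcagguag
mmu-miR-20a-5p: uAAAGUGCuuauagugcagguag
mmu-miR-18a-5p: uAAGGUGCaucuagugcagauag
mmu-miR-19a-3p: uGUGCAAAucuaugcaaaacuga
mmu-miR-19b-3p: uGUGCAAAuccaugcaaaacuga
mmu-miR-92a-3p: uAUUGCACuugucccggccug
mmu-miR-15a-5p: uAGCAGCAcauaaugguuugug
mmu-miR-16-5p: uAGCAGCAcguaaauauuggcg
The 8 arms fall into 5 seed families: miR-17 with miR-20a, miR-18a, miR-19a with miR-19b, miR-92a, and miR-15a with miR-16. The 6 arms of the first 4 families lie on the plus strand of chromosome 14 between 115043684 and 115044496, inside the GENCODE model of Mir17hg. The RefSeq model of that gene starts at 115044390, after 5 of the 6. The arms of miR-16-1 and miR-15a lie on the minus strand of the same chromosome, at 61631936 to 61631957 and 61632075 to 61632096, inside Dleu2.

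Levels are in FPKM, a fragment count divided by transcript length and by a measure of the library's size, and come in 2 tables made separately. The sources used here do not say how that size was set. One table holds the pair numbered 2 and the other the pair numbered 3. FPKM summed to 880583 and 794873 in Th0+Dopa 2 and 3 and to 687066 and 715110 in Th0 2 and 3. Genes of small RNAs held 26.0% and 20.6% of the sum in Th0+Dopa and 18.3% and 16.5% in Th0. Mitochondrial genes held 1.55% and 3.35% in Th0+Dopa and 5.64% and 8.41% in Th0. From the steps between low values, 1 fragment on a 1 kb transcript was worth 0.156 to 0.206 FPKM, so that Mir17hg, with 1 transcript of 3536 bases, rested on about 281 and 319 fragments in the Th0+Dopa libraries and 347 and 270 in the Th0 libraries, a counting error of 5.37 to 6.08%. Cd4 stood at 115 and 120 FPKM in Th0+Dopa and at 122 and 123 FPKM in Th0, and all 16 T cell identity genes passed the filter. Markers of other cells moved with the treatment. The summed level of 12 macrophage and dendritic cell markers was 62.0 and 62.3 FPKM in Th0+Dopa and 460 and 611 FPKM in Th0, with none at 0. That of 10 granulocyte and mast cell markers was 50.2 and 47.8 FPKM in Th0+Dopa and 451 and 600.2 FPKM in Th0, with Elane, a neutrophil protease, at 0 in both Th0+Dopa libraries. In these lists 10 of 11 and 9 of 9 tested genes were called lower, against 4.39% of all tested genes. Of the T cell identity genes 4 were called higher and 1 lower, against 6.28% and 4.39% of all tested genes. Cd5 (log2 difference 0.96), Cd6 (0.84) and Cd3d (0.48) were among the higher ones, and Trac (-0.70) was the lower one. Cd4 is thus a steady gene of a list that moved in both directions. Of 2 tested B cell markers 0 were called in limma, with 1 at an unadjusted p under 0.05, as were 3177 of all 11423 tested genes. In bulk RNA, fewer cells of a type and less RNA per cell cannot be told apart.

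Of the 5 RNAs, Malat1 fell with dopamine and the others did not pass the test. A call here is an adjusted p under 0.05 in limma, fitted over the 11423 genes whose mean over the libraries reached 1 FPKM. Among those genes 6.28% were called higher and 4.39% lower. Among 326 tested long noncoding RNA genes, 6.13% were called higher and 2.45% lower. Differences are the mean of the within-table log2(FPKM + 1) differences, Th0+Dopa minus Th0, with the standard error (SE) after ±. The median difference of all tested genes was 0.027, and that of the tested long noncoding RNA genes was -0.025.

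Malat1 (ENSMUSG00000092341, GRCm38 chromosome 19, 5795690 to 5802672, minus strand) is annotated as a lincRNA with 4 transcripts of 485 to 6983 bases. Malat1 had 209 and 444 FPKM in Th0+Dopa 2 and 3, against 426 and 669 FPKM in Th0 2 and 3. Within each table the Th0+Dopa library was the lower one, while across tables the groups overlapped, since Th0+Dopa 3 lay above Th0 2. The log2 difference was -0.81 ± 0.14 (limma adjusted p = 0.0237; 95% interval -1.15 to -0.47), a fold of 0.572 on the log2(FPKM + 1) scale. The ratio of Th0+Dopa to Th0 was 0.491 in the first table and 0.664 in the second. Of the tested genes 5.14% had a lower difference than Malat1, as did 19 of the 326 tested long noncoding RNA genes.

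Malat1 was the most abundant of the 5 in every library, and the range between its libraries was wide in both groups. It averaged 327 ± 166 FPKM in Th0+Dopa and 547 ± 172 FPKM in Th0 (SD, n = 2 each, taken across the separate tables). Its share of the summed FPKM of long noncoding RNA genes was 2.73% and 6.28% in Th0+Dopa and 6.78% and 9.91% in Th0. By level it ranked 8 and 3 among long noncoding RNA genes in the Th0+Dopa libraries and 3 in both Th0 libraries. Of the 5 RNAs, Malat1 and Mir17hg have the lowest GC content, 41.4% and 40.1% as the mean over annotated transcripts. Transcript length is the same kind of mean, 2170 bases for Malat1, whose longest form has 6983. Both belong to the lowest of 10 equal classes of tested genes by GC content, whose median difference was -0.16 in either table, against 0.40 and 0.34 in the highest class. With differences corrected for GC content and transcript length, Malat1 had -0.60 ± 0.12 (adjusted p = 0.0533). Its call was also lost without limma's trend (adjusted p = 0.122) and without the block for the tables (adjusted p = 0.288). With any 1 library left out Malat1 had -1.36 to -0.30, against -1.02 and -0.59 within the tables. Those fits also drop the block and compare across the tables, so they are no separate check of the call. Without the trend, none of the calls named below for other genes passed either. The myeloid markers above were lower in the same libraries, and their part in the difference of Malat1 was not tested.

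**Figure D1:**
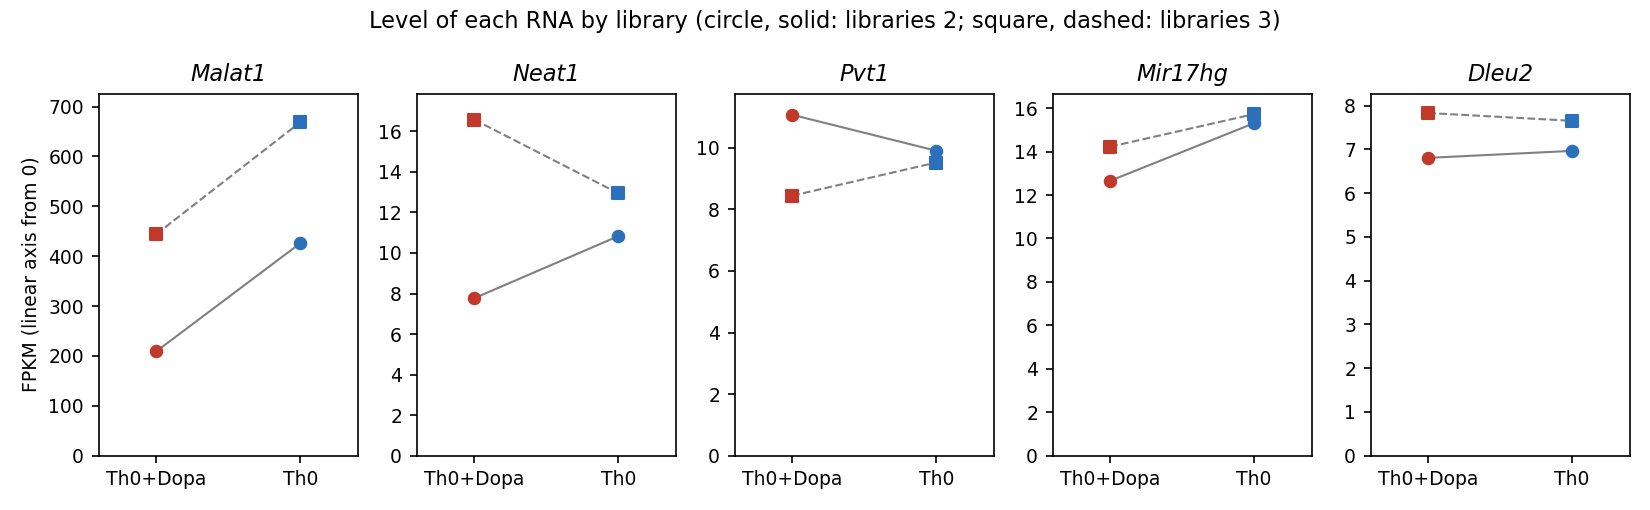
FPKM of the 5 RNAs in Th0+Dopa (red, left) and Th0 (blue, right) libraries, with lines joining the libraries of 1 table. Malat1 is lower in Th0+Dopa in both tables, the lines of Neat1 and Pvt1 cross in direction, and Mir17hg and Dleu2 change little.

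Neat1 (ENSMUSG00000092274, chromosome 19, 5824708 to 5845478, minus strand), the architectural RNA of paraspeckles, had differences of opposite sign in the 2 tables. Neat1 had 7.77 and 16.6 FPKM in Th0+Dopa 2 and 3, against 10.8 and 12.9 FPKM in Th0 2 and 3. The Th0+Dopa libraries were thus the lowest and the highest of the 4, on either side of the Th0 libraries. The within-table differences were -0.43 and 0.33, and the estimate was -0.049 ± 0.22 (adjusted p = 0.912; 95% interval -0.60 to 0.50). Of all tested genes, 1718 (15.04%) were likewise lower with dopamine in the first table and higher in the second. The annotated Neat1 transcripts run from 711 to 20771 bases, and a gene-level FPKM does not separate the short form from the long form that builds paraspeckles. In the longest of 10 classes of tested genes by transcript length, to which Neat1 and Mir17hg belong, the median difference was -0.16 in the first table and 0.033 in the second.

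Malat1 and Neat1 can be compared within a library, where scaling cancels but an effect of GC content or length does not. The Malat1 to Neat1 ratio of FPKM was 26.9 and 26.8 in Th0+Dopa and 39.3 and 51.6 in Th0. Both Th0+Dopa ratios lay below both Th0 ratios, although the differences of Neat1 itself had opposite signs. The log2 differences of the ratio were -0.55 and -0.95 in the 2 tables, a description of 4 libraries with no test. By mean GC content over annotated transcripts, the class of Malat1 had a median difference of -0.16 in both tables, and that of Neat1 0.031 and 0.041. The 20771-base form of Neat1 alone has 47.3% GC, which falls in a class with medians of -0.033 and -0.038. The sign for the class of Neat1 thus depends on the transcript taken. Corrected for GC content and length, with the same means over transcripts, Malat1 had -0.60 and Neat1 -0.17. The part of GC content in the ratio was not tested.

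Among the protein-coding neighbours of the pair, 1 was called higher. Frmd8, which encodes a partner of the iRhom and ADAM17 sheddase complex and lies 4224 bases from Neat1, had 21.2 and 16.6 FPKM in Th0+Dopa, against 11.6 and 10.996 FPKM in Th0. Both Th0+Dopa libraries lay above both Th0 libraries, as for 31.4% of all tested genes. Frmd8 rose by 0.69 ± 0.15 (adjusted p = 0.0467), but did not pass with a common sum of FPKM (0.45, adjusted p = 0.148), once corrected for GC content and length (0.44, adjusted p = 0.146), or without the block (adjusted p = 0.0875). Slc25a45, a mitochondrial carrier, had a difference of -0.22 ± 0.25 (adjusted p = 0.616). Ltbp3, which binds latent TGF-beta, was at most 0.0886 FPKM and was not tested.

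**Figure D2:**
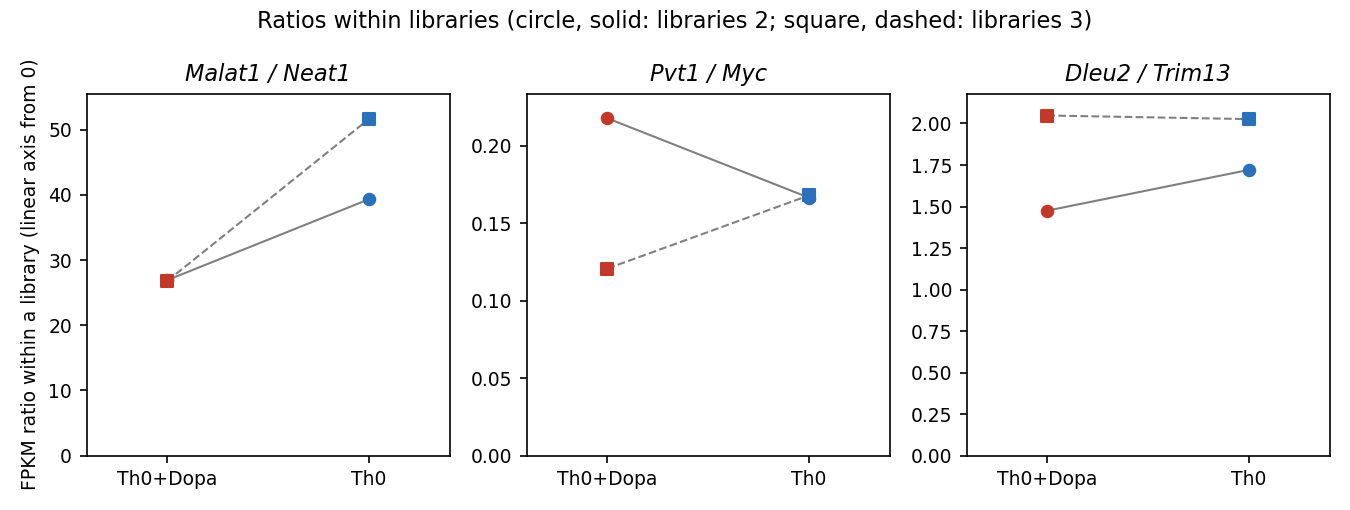
Ratios of FPKM within a library for 3 pairs of genes, Th0+Dopa left and Th0 right, with lines joining the libraries of 1 table. Malat1 to Neat1 is 26.9 and 26.8 in Th0+Dopa and 39.3 and 51.6 in Th0, and the ratio of Pvt1 to Myc moves in opposite directions in the 2 tables.

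The proteins that work with Neat1 and Malat1 were read from 2 lists. Of 21 tested paraspeckle proteins, 3 fell and 0 rose, against 4.39% and 6.28% of all tested genes. Their median difference was -0.23, against 0.027 for all tested genes. Sfpq, an essential paraspeckle protein that binds Neat1, had 88.8 and 134 FPKM in Th0+Dopa, against 163 and 207 FPKM in Th0, a difference of -0.74 ± 0.11 (adjusted p = 0.0168). Its Th0+Dopa libraries lay below its Th0 libraries, as for 25.6% of all tested genes. Ewsr1, an RNA-binding protein of the FET family, had 293 and 238 FPKM in Th0+Dopa, against 511 and 472 FPKM in Th0 (-0.89 ± 0.11, adjusted p = 0.00885). Hnrnpm, a splicing regulator, had 143 and 165 FPKM in Th0+Dopa, against 210 and 220 FPKM in Th0 (-0.48 ± 0.10, adjusted p = 0.0427). The partners of Sfpq in the same protein family did not pass, Nono with -0.23 (adjusted p = 0.240) and Pspc1 with -0.46 (adjusted p = 0.0570). Without the block for the tables Sfpq (adjusted p = 0.139) and Hnrnpm (adjusted p = 0.0943) did not pass. Without Th0+Dopa 2, in a fit with no block, Sfpq had -0.48, against -0.87 and -0.62 within the tables. Scaled to a common sum, 7 members were called lower, but so were 1064 of all 11423 tested genes, whose median difference moved to -0.20. After the GC and length correction 2 members were called lower, as were 402 of all genes in that fit.

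Of 19 tested genes listed as nuclear speckle, splicing or other partners of Malat1, 0 were called in limma, against 6.28% higher and 4.39% lower among all tested genes. An unadjusted p under 0.05 was reached by 5 of the 19, against 3177 of all 11423 tested genes. Their median difference was -0.059. The most abundant members encode SR proteins that bind Malat1. Srsf1 had 444 and 434 FPKM in Th0+Dopa, against 475 and 546 FPKM in Th0 (-0.21 ± 0.11, adjusted p = 0.284), and Srsf2 had 365 and 383 FPKM in Th0+Dopa, against 411 and 439 FPKM in Th0 (-0.18 ± 0.10, adjusted p = 0.307). With a common sum of FPKM 4 were called lower, as were 1064 of all 11423 tested genes.

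Pvt1 (ENSMUSG00000097039, chromosome 15, 62037986 to 62378096, plus strand), a lincRNA with 10 transcripts of up to 3319 bases, showed no common direction. Pvt1 had 11.1 and 8.44 FPKM in Th0+Dopa, against 9.91 and 9.52 FPKM in Th0. The Th0+Dopa libraries were again the highest and the lowest of the 4. The within-table differences were 0.15 and -0.16, and the estimate was -0.0047 ± 0.17 (adjusted p = 0.991; 95% interval -0.43 to 0.43). Differences of either sign within this interval are not excluded, and a call would need a larger difference than its limits.

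Myc, the transcription factor gene 47612 bases from Pvt1, had 50.9 and 69.96 FPKM in Th0+Dopa, against 59.5 and 56.7 FPKM in Th0 (0.038 ± 0.15, adjusted p = 0.903). The sign of its difference changed with the scaling (-0.21 with a common sum and -0.11 with a protein-coding sum). In each table Myc and Pvt1 had differences of opposite sign. The Pvt1 to Myc ratio was 0.218 and 0.121 in Th0+Dopa and 0.166 and 0.168 in Th0, closely alike in the Th0 libraries and apart on either side in the others. Of 23 tested genes of the Myc network and its targets, 2 rose and 0 fell, against 6.28% and 4.39% of all tested genes. Their median difference was 0.060. Ran, the GTPase of nuclear transport, had 706 and 523 FPKM in Th0+Dopa, against 256 and 242 FPKM in Th0 (1.29 ± 0.13, adjusted p = 0.00475). Slc7a5, a transporter of large neutral amino acids, had 23.5 and 31.8 FPKM in Th0+Dopa, against 15.6 and 13.99 FPKM in Th0 (0.84 ± 0.18, adjusted p = 0.0412). Slc7a5 did not pass with a common sum (adjusted p = 0.123), without the block (adjusted p = 0.0705) or once corrected for GC content and length (adjusted p = 0.0991). Scaled to a common sum, 1 member was called higher and 3 lower, against 376 and 1064 of all 11423 tested genes.

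Mir17hg (ENSMUSG00000089726, chromosome 14, 115042879 to 115046727, plus strand) was slightly lower in both Th0+Dopa libraries without passing the test. Mir17hg had 12.7 and 14.2 FPKM in Th0+Dopa, against 15.3 and 15.7 FPKM in Th0. The groups did not overlap, as was so in this direction for 25.6% of all tested genes and 24.5% of tested long noncoding RNA genes. The within-table differences were -0.26 and -0.14, and the estimate was -0.20 ± 0.15 (adjusted p = 0.432; 95% interval -0.56 to 0.16). After the GC and length correction it was 0.028. The rows of the 6 microRNA genes inside Mir17hg were listed at 0 in all 4 libraries, so that the values describe the host transcript and levels of mature microRNAs were not analysed here.

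Dleu2 (ENSMUSG00000097589, chromosome 14, 61602839 to 61682373, minus strand), with 15 transcripts of up to 4098 bases, had the smallest within-table differences of the 5. Dleu2 had 6.80 and 7.83 FPKM in Th0+Dopa, against 6.96 and 7.65 FPKM in Th0. The libraries of each number lay close together and the groups overlapped. The within-table differences were -0.029 and 0.030, and the estimate was 0.000086 ± 0.18 (adjusted p = 1.00; 95% interval -0.44 to 0.44). The rows of Mir15a and Mir16-1 were also listed at 0 in all 4 libraries. Trim13, a ubiquitin ligase gene on the opposite strand whose model overlaps that of Dleu2 by 3108 bases, had 4.61 and 3.82 FPKM in Th0+Dopa, against 4.05 and 3.78 FPKM in Th0 (0.084 ± 0.22, adjusted p = 0.849). Whether strand was used in counting is not given, so reads of the overlap cannot be assigned. The Dleu2 to Trim13 ratio was 1.48 and 2.05 in Th0+Dopa and 1.72 and 2.03 in Th0. Among the further neighbours, Spryd7 had a difference of 0.23 ± 0.19, Kpna3, an importin alpha, -0.14 ± 0.11, and Rnaseh2b, a subunit of ribonuclease H, -0.27 ± 0.12 (adjusted p = 0.204 to 0.488).

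The order of levels below Malat1 was not stable. Dleu2 was the lowest of the 5 in every library, at 6.80 to 7.83 FPKM. Mir17hg, Pvt1 and Neat1 ranged over 12.7 to 15.7, 8.44 to 11.1 and 7.77 to 16.6 FPKM. Mir17hg and Pvt1 did not overlap, whereas the range of Neat1 covered Pvt1 and Mir17hg. Neat1 ranked above Mir17hg in Th0+Dopa 3 and below it in the other libraries. FPKM is a level per length of transcript, and for genes with many forms it depends on how fragments were assigned to them.

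**Figure D3:**
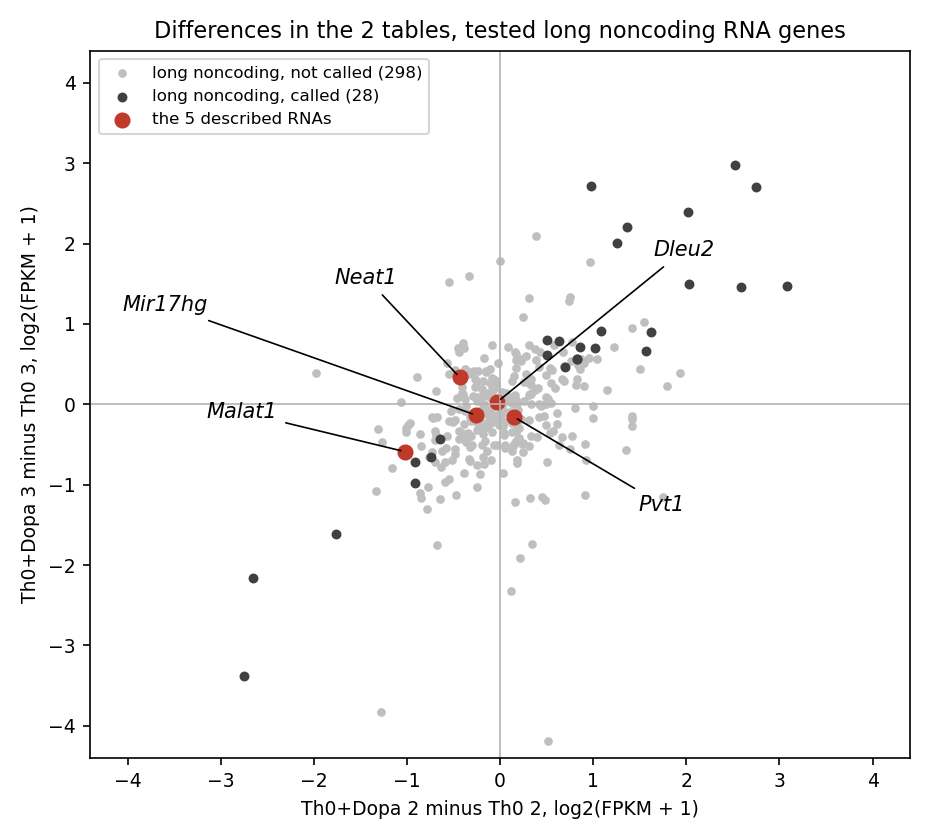
Log2(FPKM + 1) differences, Th0+Dopa minus Th0, in the pair numbered 2 (x) and the pair numbered 3 (y) for 326 tested long noncoding RNA genes. The 28 called genes, Malat1 among them, are dark, and the 5 described RNAs are red. Malat1 is at -1.02 and -0.59, and the other 4 have smaller differences on both axes.

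Reported targets of the miR-17-92 cluster moved in both directions. Among the 13 tested genes 2 rose and 1 fell, against 6.28% and 4.39% of all tested genes, and the median difference was -0.060. Bcl2l11, which encodes the pro-apoptotic protein Bim, had 10.5 and 12.8 FPKM in Th0+Dopa, against 5.45 and 7.07 FPKM in Th0 (0.81 ± 0.17, adjusted p = 0.0409). Socs1, an inhibitor of cytokine signalling, had 60.6 and 40.5 FPKM in Th0+Dopa, against 19.7 and 20.6 FPKM in Th0 (1.26 ± 0.18, adjusted p = 0.0142). Hif1a, the hypoxia factor, had 215 and 209 FPKM in Th0+Dopa, against 304 and 304 FPKM in Th0 (-0.52 ± 0.10, adjusted p = 0.0337). In all 3 the groups did not overlap. Of all tested genes 31.4% had both Th0+Dopa libraries above both Th0 libraries, and 25.6% had them below.

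Seed matches for the cluster were present in targets that rose and in the one that fell. The sites below, from GENCODE M21 transcripts, are shown because they belong to the called targets, with the 7-base seed match in capitals.
Bcl2l11, miR-17 and miR-20a: agcctggtggaggaGCACTTTctaacc
Bcl2l11, miR-19a and miR-19b: ggcttcctttacgtTTTGCACtgatga
Bcl2l11, miR-92a: agccaaatgtctctGTGCAATtgtgtt
Socs1, miR-19a and miR-19b: atattcccagtatcTTTGCACaaacca
Hif1a, miR-17 and miR-20a: atgtttggttttatGCACTTTgtcgct
Hif1a, miR-18a: gtgtcatttaaaatGCACCTTtttatt
In the 3′ UTR of the transcript with the longest coding sequence, Bcl2l11 had 5 matches to the 4 families, Hif1a 2 and Socs1 1. At least 1 match to any of the 4 families was present in 13 of 15 genes of the list. These genes were listed as reported targets, so a high share is partly built into the list. Over all tested protein-coding genes with a UTR, 13.3% held a GCACTTT (miR-17 and miR-20a), 11.7% a TTTGCAC (miR-19), 8.01% a GCACCTT (miR-18a) and 6.55% a GTGCAAT (miR-92a), on the transcript strand. These shares are for single families, and the share with a match to any of the 4 was not computed, so they do not compare with the 13 of 15. A match is a description and not a shown site.

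Reported targets of miR-15a and miR-16 moved in both directions as well. Among the 15 tested genes 1 rose and 2 fell, against 6.28% and 4.39% of all tested genes, and the median difference was -0.035. Il7r, the receptor of the survival cytokine IL-7, had 17.3 and 19.9 FPKM in Th0+Dopa, against 8.69 and 9.94 FPKM in Th0 (0.93 ± 0.15, adjusted p = 0.0191). Bcl2, an anti-apoptotic gene and a classic target of the pair, had 13.2 and 16.1 FPKM in Th0+Dopa, against 24.4 and 23.4 FPKM in Th0 (-0.68 ± 0.15, adjusted p = 0.0457). Myb, a transcription factor of lymphocyte development, had 8.19 and 9.90 FPKM in Th0+Dopa, against 14.8 and 19.8 FPKM in Th0 (-0.86 ± 0.15, adjusted p = 0.0272). In all 3 the groups did not overlap, as for 31.4% of all tested genes with Th0+Dopa above and 25.6% with it below. Each held a single match to the shared seed.
Il7r: gaccatgattttccTGCTGCTattatc
Bcl2: aataagaaaccctgTGCTGCTatcctg
Myb: ttagcctgtagtcaTGCTGCTagctag
The match TGCTGCT was present in 14 of 16 genes of the list and in 22.3% of all tested protein-coding genes with a UTR. This list too holds reported targets, so its share is partly built in. Corrected for GC content and length, Hif1a (-0.31, adjusted p = 0.0858), Bcl2 (-0.63, adjusted p = 0.0551) and Myb (-0.71, adjusted p = 0.0544) did not pass. With a common sum Bcl2l11 (0.58, adjusted p = 0.113) and Il7r (0.69, adjusted p = 0.0584) did not. Of the 6 called targets, Socs1 and Il7r passed without the block, where Bcl2l11 (adjusted p = 0.0882), Hif1a (adjusted p = 0.0636), Bcl2 (adjusted p = 0.0728) and Myb (adjusted p = 0.0787) did not.

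The genes listed under microRNA processing showed no call. Of 15 tested, 0 were called in limma, against 6.28% higher and 4.39% lower among all tested genes. An unadjusted p under 0.05 was reached by 1, against 3177 of all 11423 tested genes, and the median difference was 0.027. The list also holds Mcm7, which is not a processing enzyme, with a difference of 0.060 (adjusted p = 0.748). Drosha, the nuclease that cuts primary transcripts such as Mir17hg, had 8.37 and 8.88 FPKM in Th0+Dopa, against 8.83 and 8.61 FPKM in Th0 (-0.014, adjusted p = 0.969). Ddx5, a helicase of the Drosha complex and the most abundant member, had a difference of -0.17 (adjusted p = 0.433).

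Other known long noncoding RNAs moved in both directions. Of 38 listed, 27 had a row and 11 were tested, with a median difference of -0.026. Of the 11, 2 rose and 2 fell, against 6.28% and 4.39% of all tested genes. Mir155hg, the host of miR-155, had 12.7 and 15.3 FPKM in Th0+Dopa, against 24.8 and 25.7 FPKM in Th0 (-0.81 ± 0.14, adjusted p = 0.0240). Its difference was as large as that of Malat1, and its groups did not overlap, as for 24.5% of tested long noncoding RNA genes in this direction. Myeloid cells also express Mir155hg, their markers were lower in the same libraries, and their part in this difference was not tested. Tug1, a widely expressed nuclear RNA, had 30.3 and 36.6 FPKM in Th0+Dopa, against 48.0 and 49.8 FPKM in Th0 (-0.54 ± 0.12, adjusted p = 0.0481). Mir142hg, the host of a microRNA of blood cells, had 39.6 and 32.2 FPKM in Th0+Dopa, against 21.9 and 21.5 FPKM in Th0 (0.69 ± 0.13, adjusted p = 0.0336). Terc, the RNA template of telomerase, had 34.3 and 17.6 FPKM in Th0+Dopa, against 19.9 and 8.79 FPKM in Th0 (0.84 ± 0.14, adjusted p = 0.0214), and turned to -0.15 after the GC and length correction. Its groups overlapped, since Th0+Dopa 3 lay below Th0 2. Within the tables the differences of Terc were 0.76 and 0.93. Fits without 1 library drop the block and so also compare across tables. There Terc had 0.35 without Th0+Dopa 2, 1.29 without Th0+Dopa 3, 1.37 without Th0 2 and 0.26 without Th0 3. None of these 4 passed after that correction, and Mir142hg and Terc did not pass with a common sum (adjusted p = 0.109 and 0.0806). Without the block Terc (adjusted p = 0.320), Tug1 (adjusted p = 0.0962) and Mir142hg (adjusted p = 0.0668) did not pass.

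**Figure D4:**
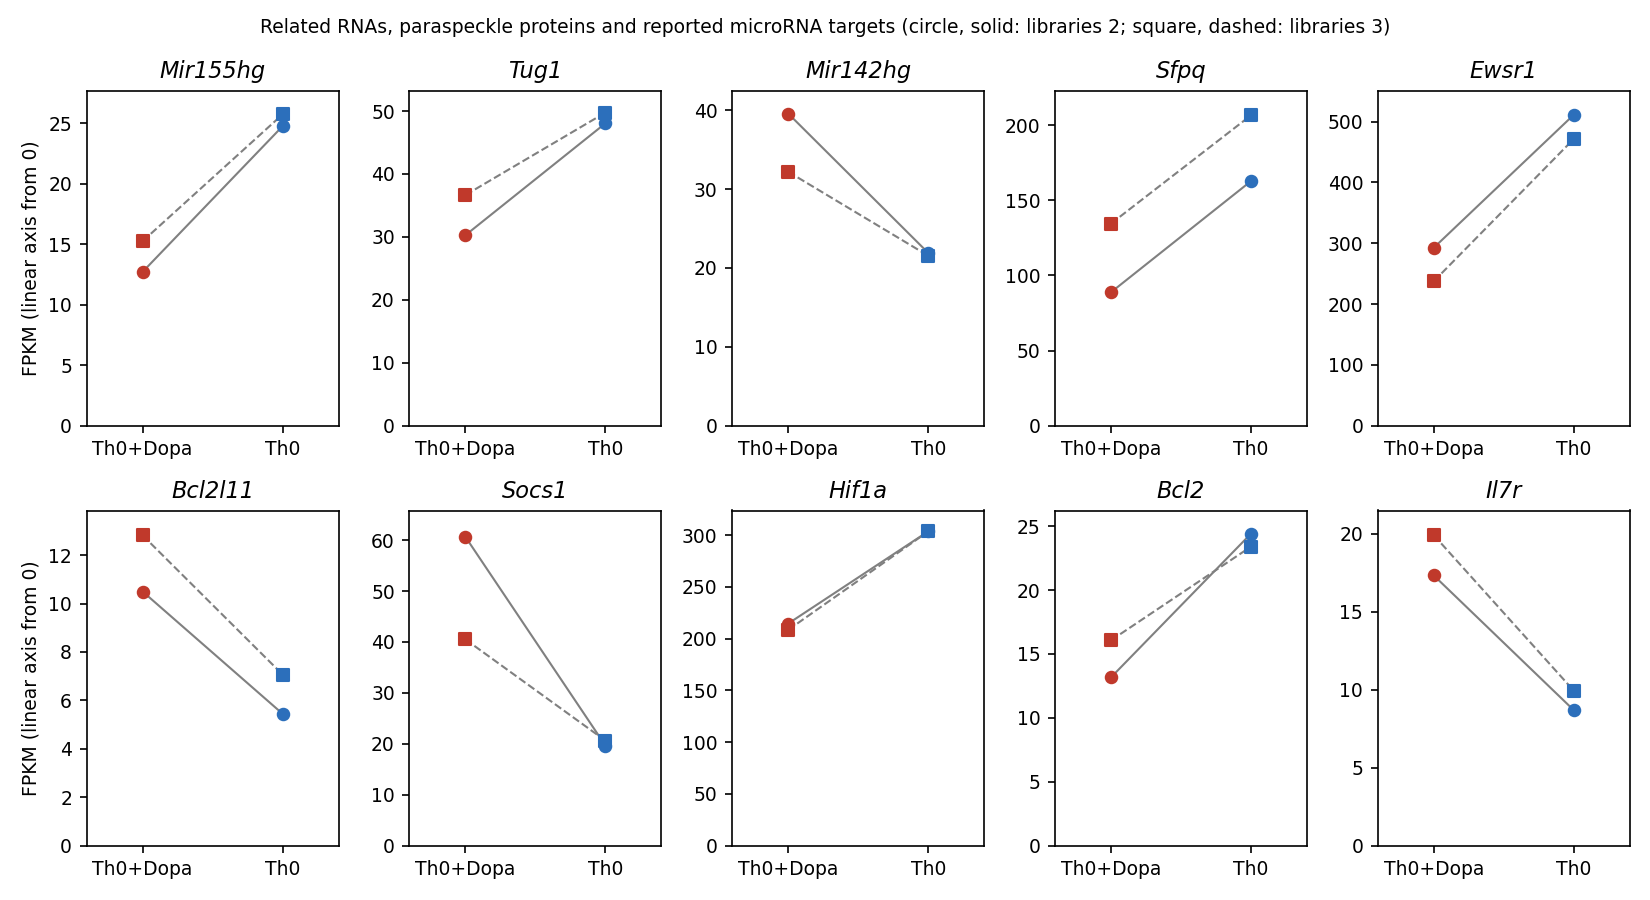
FPKM of 3 other noncoding host or nuclear RNAs, 2 paraspeckle proteins and 5 reported microRNA targets, Th0+Dopa left and Th0 right, with lines joining the libraries of 1 table. Mir155hg, Tug1, Sfpq, Ewsr1, Hif1a and Bcl2 are lower in both Th0+Dopa libraries, and Mir142hg, Bcl2l11, Socs1 and Il7r are higher.

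Genes whose pair of within-table differences lay nearest to that of each RNA were found by Euclidean distance over the 4 libraries. For Malat1 these were Pcx, the pyruvate carboxylase gene (distance 0.013), and C3, the complement component (0.022), both low at up to 4.47 FPKM, and 11 genes lay within 0.1. For Neat1 they were Mthfsl and Klhl28, with 41 genes within 0.1. For Pvt1 they were Rad23b, a DNA repair factor, and Tbce, a tubulin chaperone, with 253. For Mir17hg one was Zfp407, with 325. For Dleu2 they were Prmt5, an arginine methyltransferase, and Ccne1, which encodes cyclin E1, with 425. Ccne1 is itself on the list of reported miR-15 and miR-16 targets.

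**Figure D5:**
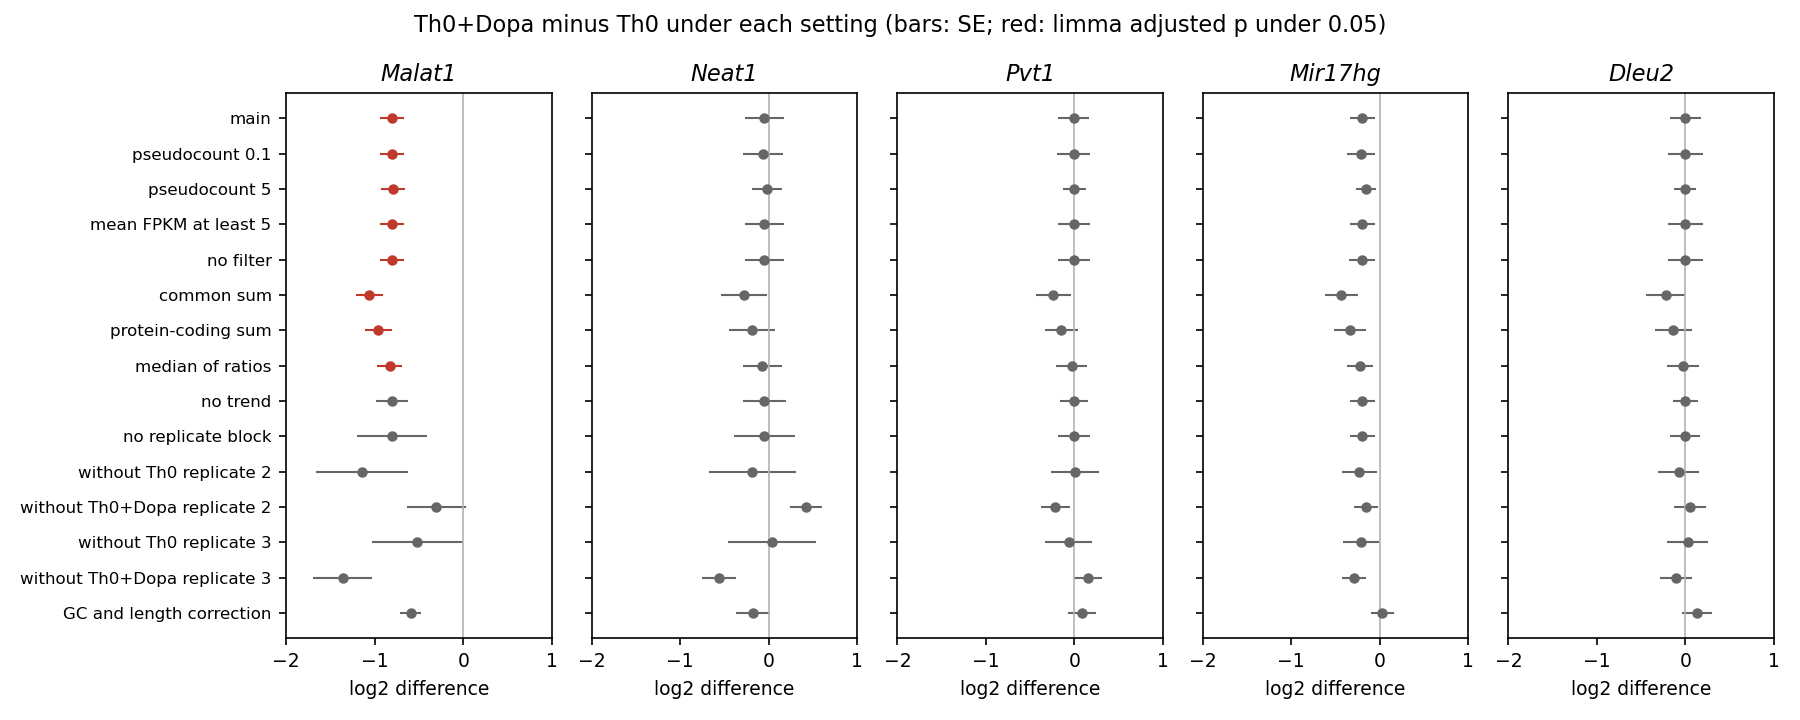
Log2 difference of each of the 5 RNAs, Th0+Dopa minus Th0, under the setting used (top row) and 14 alternatives, with SE bars. Values with an adjusted p under 0.05 are red. Malat1 is below 0 in every row and red in 8 of the 15, and none of the other 4 RNAs is red in any.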

How the data were processed

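RNA of 4 libraries was sequenced paired-end on a HiSeq2500 after depletion of ribosomal and globin RNA, per the labels' protocols. The deposited values are FPKM, made by the authors. Cufflinks 2.2.1, the STAR 2.4.2 aligner and mm10 are listed, without their roles, per the submitters' processing notes. The sources used here give no annotation release, normalization options or strand setting. GENCODE M21 (GRCm38) named 36423 of 38282 IDs; 0 sample columns were left unused.

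The test was limma 3.58.1 in R 4.3.3 (lmFit and a trended eBayes, two-sided) on log2(FPKM + 1) for the 11423 genes averaging 1 FPKM or more, with a block term for the table, which is also the replicate number, and Benjamini-Hochberg adjustment over these genes. A fold on this scale understates changes of low genes. The model has 1 residual degree of freedom per gene and a prior of 4.70. It was tested on simulated data, where false calls exceeded the nominal share in most runs. The simulation was revised once, after a first version, with each gene's variance taken from its own moderated estimate, gave a larger share of false calls, so the adjusted p-values may be too small. The labels do not state separate cultures or animals for the libraries, so the p-values reflect the spread between these samples alone, possibly a technical one. Depth was estimated from steps between low values of genes with 1 transcript: 88.0 to 89.4% of them came within 0.15 fragment of a whole multiple, where 30% would by chance. The errors from it cover counting only.

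The 5 RNAs and the gene lists were chosen with earlier results of these data known. Named genes are the 5 RNAs, their microRNA genes, the 2 nearest protein-coding genes on each side and overlapping genes, up to 3 called genes per direction in each list (or the 2 most abundant members), and the 2 genes nearest in differences. Genes outside this rule (Cd4, Elane, Nono, Pspc1, Drosha, Srrm2, Prpf8, Taf15) were named after their values were seen. Some genes that the rule names are not reported here. Neighbours in gene deserts that were near 0 are not described. Classes by GC content and length and the seed searches were added after the data were seen. GC content and length were means over the annotated transcripts of a gene, not weighted by level. Python 3.11.15 with pandas 2.3.3 did the joins and sequence searches. As alternatives, the pseudocount, the filter, the scaling and limma's trend were changed, the block was dropped, libraries were left out in turn (no block, median-of-ratios scaling), and differences were corrected for GC content and length (loess).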

Additional observations from a re-analysis of the deposited data

How the results depend on the processing

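With 717 genes called higher and 501 lower as reported, the counts were 442 and 298 with no filter, 376 and 1064 with a common sum of FPKM (median difference -0.20), 429 and 694 with a protein-coding sum (-0.11), 106 and 150 without the trend, 446 and 402 after the GC and length correction, and 0 to 13 and 0 to 9 when 1 library was left out. With no replicate block they were 256 and 240. Deviations of same-numbered libraries were correlated with r = 0.0869. The table and the replicate number are the same factor, so a block for the table is also a pairing by number. This low r holds for both readings, and the block was kept because the tables were made separately. Malat1 (-0.81) had an adjusted p of 0.122 without the trend and 0.288 with no replicate block, and -0.60 after the GC and length correction. Its value without Th0+Dopa 2 was -0.30, without Th0 3 -0.52, without Th0 2 -1.15 and without Th0+Dopa 3 -1.36. The number of the 5 RNAs called, 1 as reported, was 0 in each of these settings. Under the other pseudocounts, filters and scalings Malat1 kept its call (-0.80 to -1.06). Leaving out 1 library moved Neat1 between -0.57 and 0.42, Pvt1 between -0.22 and 0.16 and Dleu2 between -0.10 and 0.056. Dleu2, near 0, also turned to -0.00011 with a pseudocount of 0.1, -0.22 with a common sum, -0.13 with a protein-coding sum and -0.024 with the median of ratios. After the GC and length correction the sign turned for Mir17hg (0.028), Pvt1 (0.084), Klhl28 (0.18), Kpna3 (0.084), Rad23b (0.050), Tbce (0.084), Terc (-0.15) and Myc (-0.088). With a common and a protein-coding sum it turned for Mcm7 (-0.19 and -0.093), Myc (-0.21 and -0.11) and Trim13 (-0.12 and -0.041). The cause was not tested. Of 27 named genes called, 20 were still called with a common sum, 21 with a protein-coding sum, 19 with no filter, 22 with a pseudocount of 5, 6 without the trend (all of them macrophage, dendritic, granulocyte or mast cell markers), 12 with no replicate block, 15 after the GC and length correction and 0 in each fit without 1 library. Such a fit takes the spread of the single remaining library from the other group. It also drops the block and compares across the tables, so a lost call cannot be laid to the missing library alone. With 1 library left out, the ranges that crossed 0 were -0.091 to 0.037 for Ccne1, -0.15 to 0.091 for Prmt5, -0.29 to 0.15 for Klhl28, -0.34 to 0.19 for Mthfsl, -0.27 to 0.20 for Rad23b, -0.20 to 0.13 for Tbce, -0.0070 to 0.073 for Mcm7, -0.20 to 0.23 for Myc and -0.056 to 0.18 for Trim13.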

Other observations

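Over all tested genes, medians by seed match were compared after the data were seen. Protein-coding genes with a miR-17 and miR-20a match in the 3′ UTR (1322 genes) had a median difference of -0.048, against 0.037 for the 8634 without one. Their UTRs were longer, with a median of 2348 bases against 797. Among UTRs of 1 to 2 kb, the medians were -0.094 for 337 genes with a match and -0.019 for 2008 without. The other seeds of the cluster differed in sign among UTRs of this length. For miR-18a the medians were 0.0060 with a match and -0.029 without, for miR-19 -0.035 and -0.027, and for miR-92a -0.070 and -0.025. For miR-15a and miR-16 the medians were 0.0030 with a match and 0.029 without, and among UTRs of 1 to 2 kb 0.0095 and -0.038. These are descriptions over genes, which share libraries, GC content and length, with no test.

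Some listed RNA-binding protein genes varied between the Th0+Dopa libraries as Neat1 did, and were picked after their values were seen. Srrm2 had 13.1 and 38.0 FPKM in Th0+Dopa 2 and 3, against 23.3 and 23.5 FPKM in Th0. Prpf8 had 28.7 and 58.1 FPKM in Th0+Dopa, against 49.3 and 48.4 FPKM in Th0. Taf15 had 8.92 and 20.7 FPKM in Th0+Dopa, against 14.3 and 16.6 FPKM in Th0. In each, Th0+Dopa 2 was the lowest library and Th0+Dopa 3 the highest.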
